A study of Mus musculus with 9 samples.

Results

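The circadian clock genes examined here were Arntl, Clock, Per1, Per2, Per3, Cry1, Cry2, Nr1d1, Nr1d2 and Dbp, taken by symbol from the deposited table of kidney expression. All 10 were present among the 13081 genes listed, and all 10 were among the 12667 genes tested, which reached 10 normalised counts or more in 4 libraries or more. Cry1 passed only through 4 old libraries. RNA came from kidneys of mice labelled wild type, with 4 libraries from young (3 months) and 5 from old (16 months) mice, and the labels name no altered allele and no agent in either group. The study's methods describe C57BL/6 mice kept on chow under a light-dark cycle. The hour at which each kidney was collected is not given in the sources used here, so time of day and age cannot be told apart for any result below.

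The mammalian clock is a feedback loop of transcription factors that runs in nearly every cell, the kidney tubule included. ARNTL (also called BMAL1) pairs with CLOCK or with NPAS2, binds E-box sequences and drives the Per, Cry and Nr1d genes and Dbp. PER and CRY proteins then hold that pair in check, REV-ERB proteins (encoded by Nr1d1 and Nr1d2) repress Arntl through elements that the activating ROR proteins also bind, and DBP activates genes with D-boxes. Over a day, Arntl and Npas2 messenger RNA peak at about the opposite time to Nr1d1, Dbp and Per3, whereas Clock messenger RNA varies little. A set of kidneys frozen at different hours would therefore differ in these genes whatever their age, and each library is a single time point.

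The sequence elements behind this wiring can be seen in RefSeq promoter windows (250 bases before to 50 after each start, GRCm38.p6, which is not the authors' build), of which 9 of the 10 genes had at least 1 and Per2 had none. They are shown as examples of the 3 kinds of element through which the loop is wired, in genes whose levels are given below, and of the 9 genes with a window only the 4 shown (Arntl, Per1, Per3 and Cry1) had a match in it. The letters of an element are in capitals, and each is read 5′ to 3′ on the strand of its gene. The start is that of the window, and the Per1 window (chr11:69098699-69098998) lies well inside the gene span given below.

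Arntl, a REV-ERB/ROR element that begins 30 bases after the start (chr7:113207526-113207555, + strand): agggaaggcagaaagTAGGTCAgggacgga
Per3, 2 D-boxes that begin 205 and 158 bases before the start (chr4:151044804-151044882, - strand): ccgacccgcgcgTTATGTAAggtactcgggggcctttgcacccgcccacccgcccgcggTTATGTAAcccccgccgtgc
Per1, an E-box that begins 166 bases before the start (chr11:69098766-69098805, + strand): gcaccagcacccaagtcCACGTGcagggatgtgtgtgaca
Cry1, an E-box that begins 60 bases before the start (chr10:85185092-85185131, - strand): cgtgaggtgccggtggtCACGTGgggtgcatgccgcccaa
Nfil3, a REV-ERB/ROR element in the opposite orientation that begins 12 bases before the start (chr13:52981041-52981066, - strand): cgcggcgctcggaacTGACCTActaa

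The letters searched, on both strands, were CACGTG (E-box), TTATGTAA and TTACGTAA (D-box), and TAGGTCA and TGGGTCA (REV-ERB/ROR element). CACGTG is its own reverse complement, as is TTACGTAA. Of 32851 windows, 7.15% held CACGTG, 0.938% held TTATGTAA, 0.119% held TTACGTAA, 2.61% held TAGGTCA and 3.98% held TGGGTCA. These matches are a description of letters and not evidence of binding, and clock elements that lie outside these windows were not searched.

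The table held 4486406 to 6355095 reads per library. Mitochondrial genes took 27.0% to 29.7% of the reads of young libraries and 35.8% to 38.1% of those of old libraries. All 8 kidney markers examined were present, with a summed level of 31611 to 33402 normalised counts in young and 36289 to 43869 in old libraries, and none of the 4 adrenal markers (Cyp11b1, Cyp11a1, Cyp21a1 and Star) was listed. The summed level of 4 endothelial markers was 716 to 796 normalised counts in young and 955 to 1146 in old libraries, although 2 of them, Cdh5 and Emcn, overlapped between the ages, and that of the 4 immune markers listed of 5 was 116 to 146 and 198 to 262, although 3 of the 4 (Cd68, Cd3e and C1qa) overlapped. The 4 adipocyte markers summed to 271 to 1427 in young and 55.97 to 1033 in old libraries, with the young maximum in replicate 2 and the old maximum in replicate 3. The part of these shifts in any clock gene result was not tested. In whole tissue, fewer cells of a type and less RNA per cell cannot be told apart. The titles begin with 2 different prefixes, of which 0 occur at both ages, so any batch that these mark and age cannot be told apart either. Young replicate 4 stood apart from the other young libraries in several clock genes, so the log2 fold changes of the 10 genes with and without it are plotted side by side, and values without it are given in the text for Arntl, Npas2, Per3, Cry1 and Dbp and for the counts of called genes and of pairs that results rest on.

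Among the clock genes, Clock was higher and the output factor Dbp and the REV-ERB gene Nr1d2 were lower in old kidneys, and the activator Arntl had nearly the same mean at both ages. Cry1 and Cry2 were also called higher, but Cry1 entered the test only through its old libraries and the Cry2 call was lost when any of 3 libraries was left out. The Clock call was lost with the trend of expression with transcript length removed, and the Dbp call with a robust variance prior, whereas the Nr1d2 call was kept in all 22 alternatives. At an adjusted p-value under 0.05 in limma, 5 of the 10 genes were called, with Clock, Cry1 and Cry2 higher and Nr1d2 and Dbp lower in old kidneys, beside 59.7% of all genes tested (29.2% higher, 30.5% lower). The share of clock genes called, 50%, was thus near the background. The median log2 fold change over the 10 genes was 0.04, beside a median absolute value of 0.55, and over all genes tested these were -0.0027 and 0.56. Only Clock and Cry2 had groups that did not overlap, beside 49% of all genes tested. Without young replicate 4, 6 of 10 were called, since Per3 joined those higher in old kidneys, beside 55.2% of all genes (27.1% higher, 28.1% lower).

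**Figure D1:**
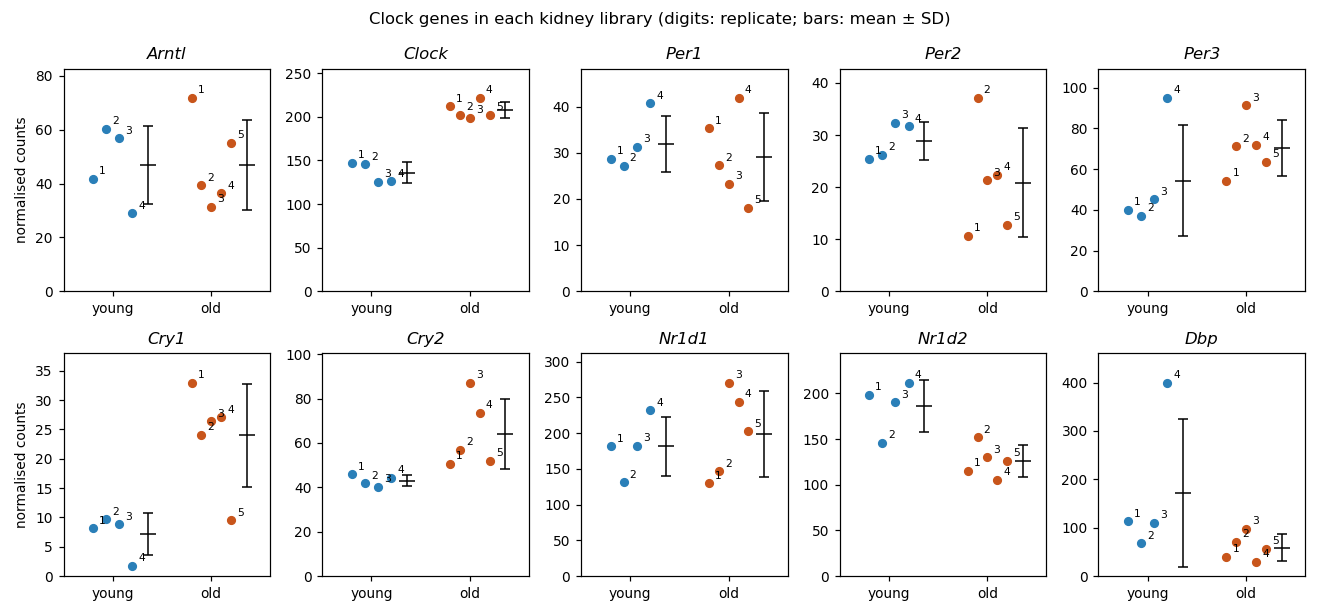
Level of each clock gene in every library (y axes, normalised counts, each starting at 0), with young libraries in blue, old libraries in orange, the replicate number beside each point, and the mean ± SD of each age (n = 4 young, n = 5 old). Clock and Cry2 separate by age, the Cry1 level of old replicate 5 (9.55) lies among the young values, and young replicate 4 has the highest Dbp level at 400.1.

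Arntl encodes the activator on which the loop depends (GRCm38 chr7:113207465-113314126). Its level was 41.8, 60.2, 56.9 and 29.0 normalised counts in young replicates 1 to 4 and 71.9, 39.4, 31.4, 36.4 and 55.2 in old replicates 1 to 5, from 31 to 62 reads per library. The ages overlapped throughout, and the range inside each age was wider than the difference between the means, which were 46.96 ± 14.4 (SD, n = 4) and 46.9 ± 16.6 (SD, n = 5). The log2 fold change was -0.01 (SE 0.26, adjusted p = 0.969 in limma), and without young replicate 4 it was -0.22 (adjusted p = 0.489 in limma). At this depth the 95% counting interval of a single library was wide, from 19.8 to 40.9 in young replicate 4 and from 55.0 to 92.4 in old replicate 1. These did not overlap, but they belong to the lowest and the highest level of the 9 libraries and to different ages.

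Clock encodes the partner of ARNTL (GRCm38 chr5:76209868-76304792). Its level was 147, 146, 125 and 126 in young libraries and 212, 202, 199, 222 and 203 in old libraries. Every old library lay above every young library, and the spread within an age was among the smallest of all genes, with a residual SD of 0.097 on the log2 scale against a median of 0.26 over all genes tested (2.57th percentile). Clock was 1.52-fold higher in old kidneys (log2 fold change 0.61, SE 0.11, adjusted p = 0.000142 in limma). The call was lost when the trend of expression with transcript length was removed from each library, where the log2 fold change was 0.10 (adjusted p = 0.457 in limma). The Clock transcript is long, at 9744 bases in the annotation used. Clock also spans a processed pseudogene on its own strand, so some of its reads could be shared.

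Npas2, which can take the place of CLOCK, was measured from the list of partners. It lay at 27.8, 25.3, 25.5 and 9.96 in young and at 33.0, 25.2, 16.2, 33.6 and 13.8 in old libraries. Young replicate 4 was the lowest of all 9 libraries, as it was for Arntl. The log2 fold change was 0.14 (SE 0.34, adjusted p = 0.731 in limma), and -0.18 without that library (adjusted p = 0.645).

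The Period genes encode repressors of the ARNTL and CLOCK pair, and none of the 3 was called with all libraries. Per1, which also responds to glucocorticoids and to light within the hour, lay at 28.7, 27.2, 31.4 and 40.7 in young and at 35.4, 27.3, 23.3, 41.98 and 18.0 in old libraries (GRCm38 chr11:69095217-69109960). The old values fell on both sides of the young range, with a log2 fold change of -0.17 (SE 0.25, adjusted p = 0.586 in limma). Per2 lay at 25.4, 26.2, 32.4 and 31.7 in young and at 10.6, 37.2, 21.3, 22.4 and 12.7 in old libraries (GRCm38 chr1:91415982-91459324). Of the 5 old libraries, 4 lay below all young libraries and old replicate 2 lay above them all. The log2 fold change of Per2 was -0.58 (SE 0.31, adjusted p = 0.117 in limma), and it was called at -0.81 without old replicate 2 (adjusted p = 0.0207 in limma) and at -0.82 with the length trend removed (adjusted p = 0.0308 in limma).

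Per3, the Period gene that carries the D-boxes printed above, was called or not depending on a single library and on the scaling. It lay at 40.1, 36.9, 45.1 and 95.1 in young and at 54.2, 71.1, 91.3, 71.8 and 63.6 in old libraries (GRCm38 chr4:151003652-151044665). All 5 old libraries exceeded the first 3 young replicates, and young replicate 4 exceeded all old libraries. With all libraries the log2 fold change was 0.46 (SE 0.24, adjusted p = 0.105 in limma). Without young replicate 4 it was 0.76 (adjusted p = 0.00392 in limma), and 0.80 in edgeR's quasi-likelihood test on whole reads (adjusted p = 0.00322). With all libraries, but mitochondrial genes left out and the rest rescaled, Per3 was called at 0.60 (adjusted p = 0.0437 in limma), a scaling that moved the median of all genes to 0.13. The annotation places Per3 within the span of Camta1 on the same strand, so the division of reads between them is uncertain.

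The Cryptochrome genes encode the stronger repressors of the pair, and both were called higher in old kidneys, with limits given for each. Cry1 lay at 8.19, 9.72, 8.82 and 1.81 normalised counts in young libraries and at 33.0, 24.1, 26.4, 27.1 and 9.55 in old libraries (GRCm38 chr10:85131700-85185064). Old replicates 1 to 4 lay above every young library, and old replicate 5 lay within the young range. Cry1 was 3.23-fold higher in old kidneys (log2 fold change 1.69, SE 0.43, adjusted p = 0.00217 in limma). It rested on 2 to 29 reads per library, with 2 reads in young replicate 4, and because no young library reached 10 normalised counts Cry1 could be tested only through its old libraries. Without young replicate 4 the log2 fold change was 1.24 (adjusted p = 0.0094 in limma), and Cry1 stayed called in all 21 alternatives in which it was tested.

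Cry2, the second Cryptochrome, lay at 45.9, 41.8, 40.2 and 44.4 in young and at 50.7, 56.9, 87.2, 73.7 and 51.98 in old libraries (GRCm38 chr2:92403646-92434043). Young libraries were close together at 43.1 ± 2.54 (SD, n = 4), and old libraries were all higher and more scattered at 64.1 ± 15.9 (SD, n = 5). The log2 fold change was 0.53 (SE 0.19, adjusted p = 0.0217 in limma). The call was lost without young replicate 3 (adjusted p = 0.0561), without old replicate 3 (adjusted p = 0.0631) and without old replicate 4 (adjusted p = 0.0530 in limma), with log2 fold changes of 0.50, 0.41 and 0.47.

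Of the REV-ERB genes, Nr1d2 fell and Nr1d1 was not called, and the difference between them was not tested. Nr1d1, which encodes REV-ERBα, lay at 182, 131, 182 and 232 in young and at 130, 147, 271, 243 and 203 in old libraries (GRCm38 chr11:98767932-98775333). The old values ran from just below the young minimum to above the young maximum. The log2 fold change was 0.10 (SE 0.20, adjusted p = 0.684 in limma). Nr1d1 overlaps Thra on the opposite strand, and the study counted reads by strand.

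Nr1d2, which encodes REV-ERBβ, lay at 198, 146, 190 and 212 in young and at 116, 152, 130, 105 and 126 in old libraries (GRCm38 chr14:18204054-18239127). Of the old libraries, 4 of 5 lay below every young library, and old replicate 2 lay just above young replicate 2. Nr1d2 was 1.48-fold lower in old kidneys (log2 fold change -0.56, SE 0.14, adjusted p = 0.00212 in limma). It was called in all 22 alternatives tried, with adjusted p-values from 0.000514 to 0.0177.

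Dbp, the output factor that binds D-boxes, lay at 113, 68.0, 110 and 400.1 in young and at 40.1, 71.1, 98.4, 29.8 and 56.2 in old libraries (GRCm38 chr7:45705088-45710203). Young replicate 4 was far above the other libraries, with a 95% counting interval of 363.7 to 439.2 from 442 reads, whereas young replicates 1 and 3 lay only just above the highest old library and young replicate 2 lay within the old range. Dbp was 2.47-fold lower in old kidneys (log2 fold change -1.30, SE 0.38, adjusted p = 0.00639 in limma). Without young replicate 4 the log2 fold change was -0.79 (adjusted p = 0.0331 in limma), and with a variance prior that is robust to outlying genes the call was lost (adjusted p = 0.0816 in limma). Dbp overlaps Sphk2 on the opposite strand, and Sphk2 lay between 195 and 241 in all libraries.

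**Figure D2:**
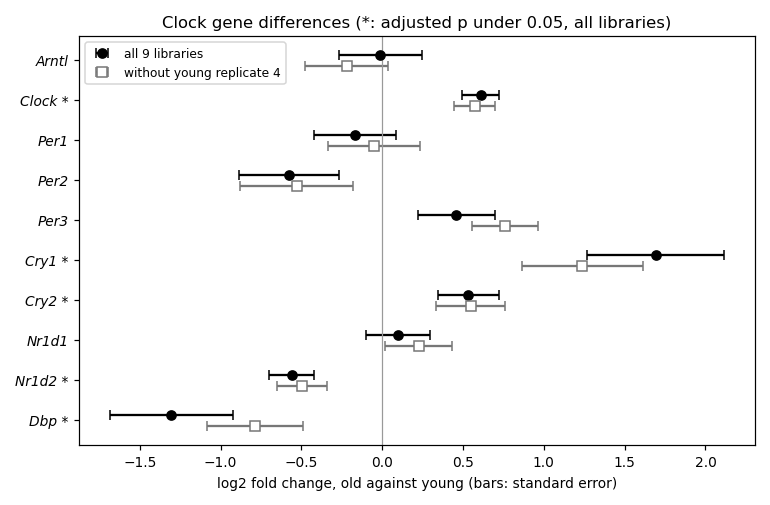
Log2 fold change of old against young kidneys for each clock gene (x axis, bars are standard errors), with all 9 libraries (filled circles) and without young replicate 4 (open squares). Asterisks mark the 5 genes called with all libraries, and leaving out the library moves Dbp from -1.30 to -0.79, Cry1 from 1.69 to 1.24 and Per3 from 0.46 to 0.76.

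Within an age, most clock genes varied more than a typical kidney gene. The residual SD on the log2 scale was 0.87 for Dbp, at the 98.5th percentile of genes tested, and 0.78 for Cry1, at the 97.4th. Per2 lay at the 88.5th percentile, Arntl at the 84.5th, Per3 at the 82.6th, Nr1d1 at the 77.8th and Per1 at the 75.2nd. The Per3 value includes young replicate 4 (95.1 normalised counts, against 36.9 to 45.1 in the other young libraries). The log2 SD of Per3 was 0.61 in young but 0.27 in old libraries. Cry2 lay at the median of all genes, and Nr1d2 (36.7th percentile) and Clock lay below it. Genes with few reads vary more by counting alone, and these percentiles are not matched for level. Per library, Cry1 rested on 2 to 29 reads, Per2 on 9 to 35 and Per1 on 17 to 45. Arntl rested on 31 to 62, Per3 on 38 to 105 and Dbp on 32 to 442. The part of counting in these spreads was not tested.

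The order of the libraries within an age was then compared between genes, as the design asks for the relation of activator and repressor genes in each library. The 4 young libraries form 6 pairs and the 5 old libraries form 10, and for each pair it was noted whether a gene was higher in the library where Arntl was lower. The pairs share libraries, so these counts are a description with no test. Per3 was ordered opposite to Arntl in 15 of the 16 pairs, including all 10 old pairs, and 0.316% of all genes tested reached as many. Cry2 and Nr1d1 were opposite in 14 pairs each (1.26% of genes tested), Cry2 in 4 of 6 young and 10 of 10 old pairs and Nr1d1 in 5 and 9. Dbp was opposite in 13 (3.67%), in all 6 young but 7 of 10 old pairs. Nr1d2 was opposite in 12 (8.17%), in all 6 young but 6 of 10 old pairs. Per3 and Nr1d1 thus tended to be high in the libraries where Arntl was low, within both ages. For Dbp this held mainly in the young libraries and for Cry2 mainly in the old libraries.

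The other genes were opposite to Arntl in fewer pairs. Per1 was opposite in 10 pairs (5 of 6 young, 5 of 10 old), Per2 in 10 (3 and 7), Clock in 6 and Cry1 in 5. Cry1 was ordered as Arntl in all 6 young pairs and in 5 of 10 old pairs. Among the partners, Npas2 was opposite in 8 pairs, Tef in 7 and Nfil3, the repressor at D-boxes, in 5. Leaving out young replicate 4 removed 3 pairs, and of the 13 left Per3 and Cry2 were opposite in 12 each, Nr1d1 in 11, Dbp in 10 and Nr1d2 in 9.

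**Figure D3:**
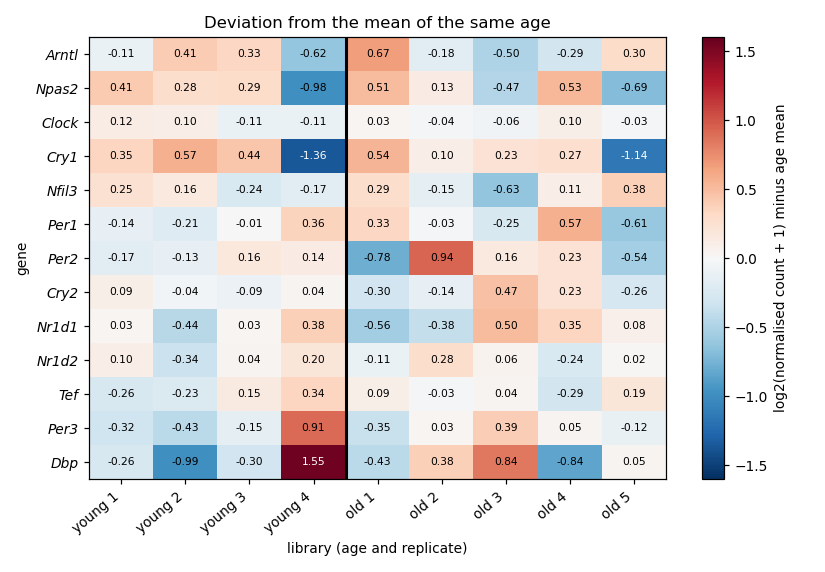
Deviation of each library from the mean of its own age for the clock genes and for Npas2, Nfil3 and Tef (log2 of the normalised count + 1, red higher and blue lower, value printed in each cell, the line separates young from old). Young replicate 4 and old replicate 3 are below their age mean in Arntl (-0.62 and -0.50) and above it in Per3 (0.91 and 0.39), Nr1d1 (0.38 and 0.50) and Dbp (1.55 and 0.84).

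In young replicate 4, Arntl, Npas2 and Cry1 were the lowest of the 4 young libraries and Dbp, Per3, Nr1d1, Nr1d2, Per1 and Tef the highest. Old replicate 3 showed part of the same arrangement, with the lowest Arntl and the highest Nr1d1, Dbp, Per3 and Cry2 of the 5 old libraries. Old replicate 1 had the highest Arntl and the lowest Nr1d1, Per3 and Cry2, but the lowest Dbp was in old replicate 4. Old replicate 3 also had the highest Adipoq level, an adipocyte marker, at 189 normalised counts, and the highest Aqp2 level, a collecting duct marker, at 2267. The part of tissue sampling in its clock gene levels was not tested. Young replicate 4 had an Adipoq level of 0, and its Aqp2 level of 1376 was the highest of the young libraries.

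Measured against Dbp, the closest order was that of Nr1d2, which was ordered as Dbp in 15 of 16 pairs (0.284% of genes tested reached as many), followed by Per3 in 12 (8.80%). Without young replicate 4 these were 12 and 9 of 13 pairs. Arntl and Clock were each opposite to Dbp in 13 pairs (4.31%). For Clock these included all 10 old pairs, within the narrow range of 199 to 222 normalised counts. Cry1 was opposite to Dbp in 12 pairs (9.28%).

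The difference of 2 genes on the log2 scale within a library removes the scaling of that library. Arntl minus Nr1d1 was -2.10, -1.11, -1.66 and -2.96 in young and -0.84, -1.87, -3.07, -2.71 and -1.86 in old libraries. Each age covered nearly the whole range, and the mean difference between ages was -0.11, or -0.45 without young replicate 4. Arntl minus Dbp was -1.41, -0.17, -0.94 and -3.74 in young and 0.83, -0.84, -1.62, 0.28 and -0.03 in old libraries. The old mean was 1.29 higher, and 0.57 higher without young replicate 4, and the ages overlapped.

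Per3 and Dbp, ordered alike in 12 of 16 pairs, were also compared within each library. Per3 minus Dbp was -1.47, -0.86, -1.27 and -2.06 in young libraries and 0.43, 0.00, -0.11, 1.24 and 0.18 in old libraries. All old libraries lay above all young libraries. The old mean was 1.76 higher, and 1.55 higher without young replicate 4. This pair was chosen after its values were seen, so no test is given. The groups did not overlap for 49% of single genes tested, and the share of gene pairs that separate was not computed.

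**Figure D4:**
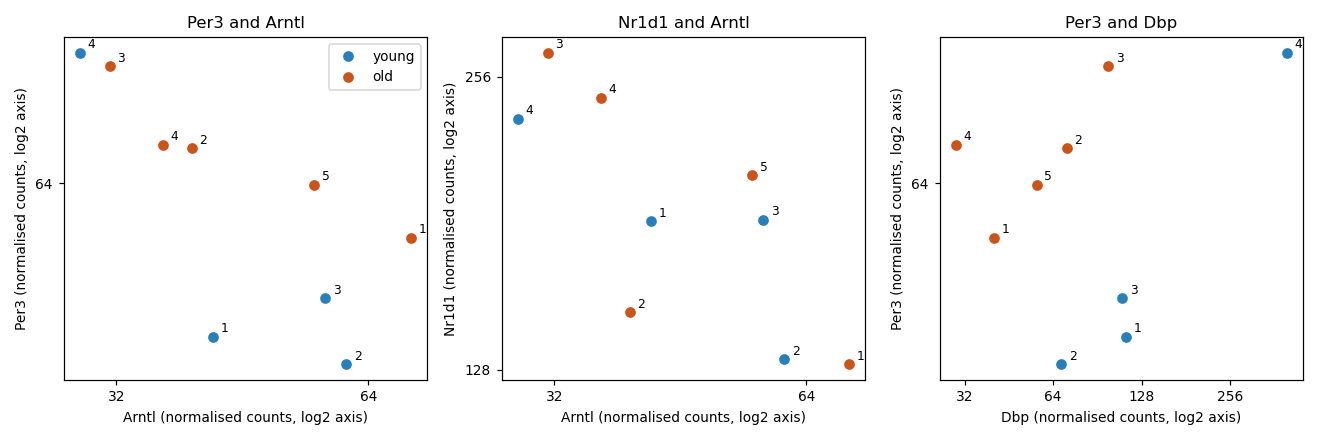
Per3 and Nr1d1 against Arntl, and Per3 against Dbp, in each library (normalised counts, log2 axes, young in blue and old in orange with replicate numbers). Per3 falls as Arntl rises in the old libraries, with old replicate 3 at the upper left. In the young libraries the fall rests mainly on replicate 4, also at the upper left. The ages share Dbp levels only from 68.0 (young replicate 2) to 98.4 (old replicate 3). There old replicates 2 and 3 have more Per3 (71.1 and 91.3) than young replicate 2 (36.9).

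The genes whose deviations from the age means were most like those of Arntl over the 9 libraries were Gm38020 (Pearson's r = 0.97), Psip1 (0.96), S100a8 (0.95), Adrm1 (0.95) and Nat8f5 (0.94). Those most like Dbp included Ttyh2 (0.96), Cmpk1 (0.94), Kif26b (0.94) and Cc2d1a (0.93). None of these is a member of the clock lists used here. Among clock genes Per3 ranked 22 of 12666 for likeness to Dbp, and for Arntl Per3 ranked 80 from the bottom, Nr1d1 173 and Cry2 227. These correlations are descriptions over libraries that share the same 2 age means.

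Most of the partners and regulators of the clock that were tested were called, in both directions. Of 23 genes on the list, 19 were tested, and Arntl2, Rorb, Bhlhe41 and Ciart were not listed in the table. Called genes numbered 16 of 19, with 7 higher and 9 lower in old kidneys, beside the 59.7% of all genes, and the median log2 fold change was 0.14. Without young replicate 4, 15 of 19 were called. Whether this share differs from that of the core genes was not tested. Rora, an activator at the elements that REV-ERB proteins repress, lay at 216 to 256 in young and 307 to 406 in old libraries (log2 fold change 0.58, SE 0.11, adjusted p = 0.000201 in limma), a call lost with the length trend removed, where the log2 fold change was 0.03.

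The D-box factors did not move together. Tef fell, as Dbp did, with 747 to 1137 in young and 502 to 703 in old libraries (log2 fold change -0.54, SE 0.13, adjusted p = 0.00126 in limma). Hlf, the other activator of this family, rose, with 474 to 574 in young and 643 to 856 in old libraries (log2 fold change 0.53, SE 0.10, adjusted p = 0.000216 in limma). Nfil3, which represses at the same sites and carries the REV-ERB/ROR element shown above, rose, with 13.7 to 19.7 in young and 26.4 to 54.1 in old libraries (log2 fold change 1.28, SE 0.25, adjusted p = 0.000216 in limma). The groups did not overlap for any of these 3 genes, as for 49% of all genes tested. With the length trend removed the log2 fold change of Hlf was 0.30 (adjusted p = 0.0188 in limma).

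The enzymes that set the life of PER and CRY proteins also moved in different directions. Btrc, an F-box protein that marks PER for degradation, rose by 1.38 on the log2 scale (SE 0.15, adjusted p = 2.76e-07 in limma). Fbxw11, on the same list, was called lower (log2 fold change -0.36, SE 0.13, adjusted p = 0.0202 in limma). The Fbxw11 call was lost on removal of mitochondrial genes and rescaling (-0.22, adjusted p = 0.131 in limma). Gsk3b, a kinase of clock proteins, rose by 1.16 (SE 0.10, adjusted p = 9.19e-09 in limma), which was 0.72 with the length trend removed. Fbxl21, which acts on CRY proteins, fell by 1.29 from few reads (SE 0.51, adjusted p = 0.0358 in limma, and 0.0815 without young replicate 4). It reached 10 normalised counts in 3 young and 1 old libraries. The casein kinase genes parted, since Csnk1d fell by 0.92 (SE 0.13) and Csnk1e rose by 0.64 (SE 0.16), with adjusted p-values of 5.93e-06 and 0.00187 in limma.

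Of 13 clock-controlled output genes, all were tested and 7 were called, 5 higher and 2 lower, near the background of 59.7%, and 7 were also called without young replicate 4. Ppara, the fatty acid receptor whose transcription follows the clock in liver and kidney, rose, with 122 to 164 in young and 648 to 848 in old libraries (log2 fold change 2.33, SE 0.11, adjusted p = 7.73e-12 in limma). Pdk4, a target of PPARα that blocks glucose oxidation, fell, with 28.4 to 65.5 in young and 3.28 to 16.2 in old libraries (log2 fold change -2.10, SE 0.37, adjusted p = 7.68e-05 in limma). It reached 10 normalised counts in 4 young but only 2 old libraries, so Pdk4 could be tested only through its young libraries. Slc9a3, the proximal tubule sodium-proton exchanger, rose by 1.75 (SE 0.18, adjusted p = 1.10e-07 in limma), and Scnn1a, a subunit of the epithelial sodium channel, by 0.80 (SE 0.12, adjusted p = 1.99e-05 in limma). Cdkn1a and Wee1, which restrain the cell cycle, were also called higher and Por, the electron donor of cytochrome P450 enzymes, lower. Wee1 was called neither by edgeR nor by DESeq2, which called 6 of the 13. Usp2, Nampt, Klf9, Klf10, Alas1 and Avpr2 were not called.

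Genes that report glucocorticoids, handling or body temperature vary over the day by routes other than the loop, and 9 of 10 were tested, since Fos was below the filter. Of these, 8 were called, 3 higher and 5 lower, beside 59.7% of all genes tested (29.2% higher, 30.5% lower), and 7 were called without young replicate 4. Zbtb16, 1 of those called higher, reached 10 normalised counts in 1 young and 4 old libraries, so it could be tested only through its old libraries. Fkbp5, a glucocorticoid target, fell, with 163 to 353 in young and 56.0 to 106 in old libraries (log2 fold change -1.56, SE 0.20, adjusted p = 2.40e-06 in limma). Sgk1, a target of both glucocorticoids and aldosterone, rose, with 111 to 138 in young and 255 to 423 in old libraries (log2 fold change 1.25, SE 0.14, adjusted p = 4.32e-07 in limma). Tsc22d3, a further glucocorticoid target, was not called (log2 fold change -0.25, SE 0.17, adjusted p = 0.228 in limma). Glucocorticoid targets thus lay in both directions.

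The immediate early genes were divided as well. Ier2 (log2 fold change -1.49, SE 0.37) and Junb (-1.14, SE 0.26) fell, with adjusted p-values of 0.002 and 0.00101 in limma. Ier2 reached the filter level in 4 young but only 2 old libraries, so it could be tested only through its young libraries. Egr1 rose instead (adjusted p = 0.0015 in limma), with 29.9 to 41.8 in young and 53.2 to 134 in old libraries. The Egr1 maximum was in old replicate 3. The cold-inducible genes Cirbp (log2 fold change -0.51, SE 0.18) and Rbm3 (-0.72, SE 0.12) fell, with adjusted p-values of 0.0197 and 5.90e-05 in limma. For Cirbp the log2 fold change was -0.17 with the length trend removed (adjusted p = 0.428 in limma). The part of the hour or manner of collection in these changes was not tested, since neither is given in the sources used here.

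**Figure D5:**
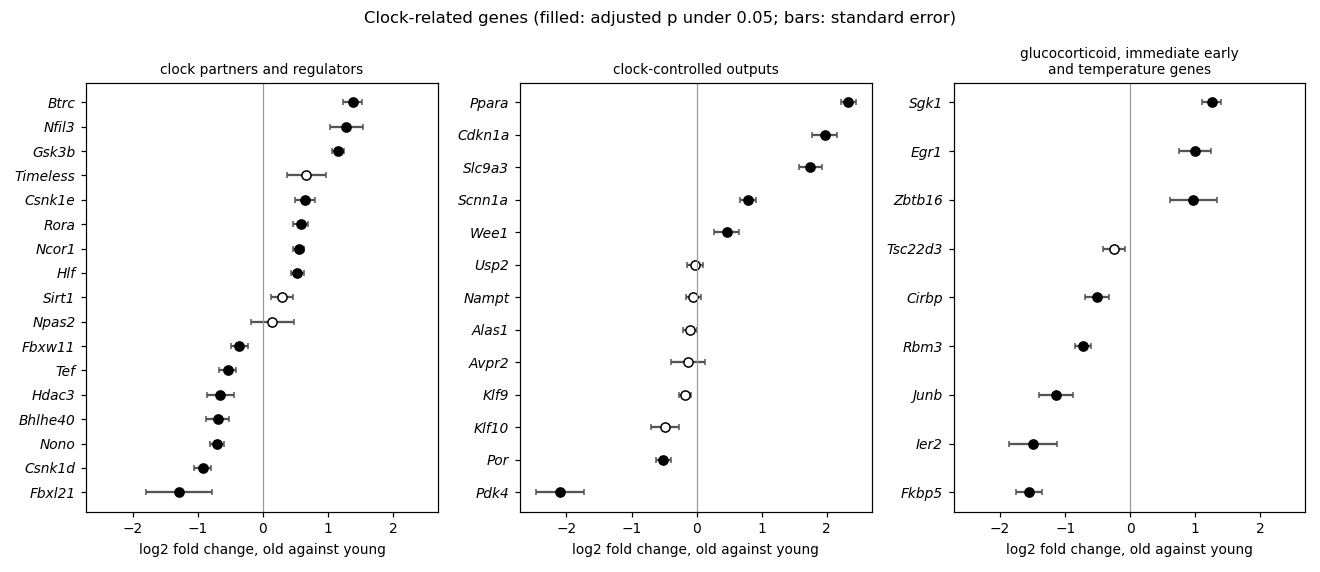
Log2 fold change of old against young kidneys (x axes, bars are standard errors) for 17 partners and regulators, 13 clock-controlled outputs and 9 glucocorticoid, immediate early and temperature genes. Filled circles were called, and each list has called genes on both sides of 0, from Fbxl21 at -1.29 to Btrc at 1.38, from Pdk4 at -2.10 to Ppara at 2.33, and from Fkbp5 at -1.56 to Sgk1 at 1.25.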

How the data were processed

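RNA-seq was performed on kidneys of wild-type mice of 3 months (4 libraries) and 16 months (5 libraries). Groups were taken from the age in the labels, and replicate numbers follow the order of listing. No source used here ties libraries to animals, so p-values measure the spread between these libraries. Libraries read transcript 3′ ends from oligo(dT) priming as stranded single reads. The kit version in the labels and that in the study's methods differ, and any part of this in the results was not tested. The authors aligned reads to GRCm39 (the submitters' processing notes name TopHat2 2.0.10, Bowtie 1.0.0, SAMtools 0.1.19, FastQC 0.11.7 and HTSeq 0.6.1), counted them per gene by strand on GENCODE vM26 and normalised them with DESeq. What was deposited is a normalised count signal, in which each library's read counts were divided by a single size factor. Whole reads were recovered from them, as 100% of values were whole multiples (tolerance 0.01) of the value of 1 read.

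The main test was limma 3.58.1 with R 4.3.3 and a variance trend, comparing old with young on log2(normalised count + 1) without a covariate. Genes needed 10 normalised counts or more in 4 libraries or more. Benjamini-Hochberg adjustment ran over 12667 genes, and a gene was called at an adjusted p-value under 0.05. Changes of low genes are understated on the log2(value + 1) scale. Scripts were tested on simulated data. Alternatives were pseudocounts of 0.1 and 5, no filter, a mean of at least 100, TMM and table total scaling, mitochondrial genes left out with the rest rescaled, thinning, robust eBayes, DESeq2 1.42.0 or edgeR 4.0.16 run on recovered reads, a transcript length trend removed, and each library left out with the gene filter kept. edgeR without young replicate 4 was chosen after seeing the data.

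The members and gene lists were chosen with earlier results of these data known. Named genes were the 10 members, up to 8 called genes per list with an absolute log2 fold change of at least 1, the 5 genes most like Arntl and the 5 most like Dbp, and Npas2, Nfil3, Tef, Hlf, Rora, Bhlhe41 and Ciart. Some genes that this rule takes are not reported here, although counts over lists include them. Other genes were named after their values were seen. Gene positions and transcript lengths came from GENCODE vM21 on GRCm38, and promoter windows from RefSeq on GRCm38.p6, neither the authors' build. Counting intervals are exact Poisson (95%) and cover counting error only, since reads that carry no molecular identifier may be copies. Ddx3y was present in all 9 libraries at 125 to 267 normalised counts and Xist was not listed.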

Additional observations from a re-analysis of the deposited data

Results flagged for a closer look

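The log2 level (normalised count + 1) of the 10 clock genes and of Npas2, Nfil3, Tef, Hlf and Rora, and the differences Arntl minus Nr1d1 and Arntl minus Dbp, were examined in each age for a library set apart from the others by Dixon's criterion. Of 34 groups examined, 3 held such a library, and chance sets apart about 1 in 20 groups, or 1.7 of 34. Cry1 in young replicate 4 had a log2 level of 1.49, against 3.20 to 3.42 in the other young libraries, from 2 reads. Cry1 in old replicate 5 had a log2 level of 3.40, against 4.65 to 5.09 in the other old libraries. Npas2 in young replicate 4 had a log2 level of 3.45, against 4.71 to 4.85 in the other young libraries.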

How the results depend on the processing

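Directions and calls were mostly kept. Nr1d2 kept its call in all 22 alternatives, and Clock, Cry2 and Dbp lost theirs only as given with each gene. Keeping genes with a mean of 100 normalised counts or more tested fewer genes and called 4101. Of the clock genes only Clock, Nr1d1, Nr1d2 and Dbp were then tested, and 3 were called (1 higher), all but Nr1d1. Called partners numbered 10, and glucocorticoid, immediate early or temperature genes 4. Fewer genes of the lists were tested under this filter, so these counts cannot be set against those of the main test. Robust eBayes called 1 clock gene lower. With each library left out in turn, 6900 to 7626 genes were called, with 4 to 6 clock genes (2 to 4 higher, 2 to 3 lower), 14 to 17 partners, 6 to 8 outputs and 6 to 8 glucocorticoid, immediate early or temperature genes. Over the same settings, Arntl minus Dbp ranged from 0.57 to 1.76 between ages and Arntl minus Nr1d1 from -0.45 to 0.17. Signs changed only among genes that were not called: log2 fold changes ranged from -0.22 to 0.12 for Arntl, -0.047 to 0.24 for Nr1d1 and -0.18 to 0.32 for Npas2 with a library left out. After removal of mitochondrial genes and rescaling, the median of all genes moved to 0.13, Arntl was at 0.13 and Per3 was called at 0.60 (adjusted p = 0.0437 in limma). In edgeR without young replicate 4, Per1 was at 0.015 and Npas2 at -0.10. The causes were not tested. No paired analysis was possible because the titles carry no replicate numbers that the ages share. Genes with few reads, Cry1 above all, are limited by depth.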
